A study of Caenorhabditis elegans with 28 samples.

Results

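The 42 *Caenorhabditis elegans* genes described here code for proteins that copy DNA or carry cells through the division cycle. The list was set by gene name and drawn up with earlier results of these data known, and 41 of the 42 had a row among the 20392 genes of the raw counts. A row for *cya-1*, a cyclin A gene, was not among them, so *cya-1* was not analysed here. The mutant animals carried *ebax-1(tm2321)*, a deletion in the gene of a substrate adaptor of a Cullin-RING ubiquitin ligase, and the wild-type animals were of strain N2. Starved L1 larvae of either genotype were given food at 25 °C, and mRNA of whole larvae was sequenced hourly from 18 h to 31 h after plating, in 14 mutant and 14 wild-type libraries. There was 1 library per genotype and hour, so the scatter of the libraries around a smooth curve over time is the error throughout, and it measures the spread between plate populations of 1 time course per genotype. In RNA of whole animals, fewer cells of a type and less RNA per cell cannot be told apart.

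Before a cell copies its DNA, the origin recognition complex, CDC-6 and CDT-1 load the MCM2-7 helicase onto replication origins, and the GINS complex helps to switch the helicase on. Primase starts the new strands, the sliding clamp PCN-1 holds the polymerases on the template, RPA-1 coats single strands and ribonucleotide reductase makes the deoxynucleotides. Cyclin D with CDK-4 and cyclin E with CDK-2 push cells into S phase, against the inhibitor CKI-1 and the pocket protein LIN-35 with its E2F partners, whereas CDK-1 with B-type cyclins and the polo and Aurora kinases run mitosis. In *C. elegans* larvae, epidermal seam cells and other blast cells divide at a set time within each larval stage, intestinal nuclei replicate around the molts, and the germ line proliferates through larval life.

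Libraries held 5701773 to 9304062 counts in the mutant and 5120921 to 9604238 counts in wild type. Levels below are CPM, the counts per 1000000 counts of the library, after scaling by trimmed mean of M-values, whose factors lay between 0.918 and 1.07. The 41 genes had at least 30 counts in every mutant library and at least 12 counts in every wild-type library, and all of them passed the filters on low counts. Reads over *ebax-1* came to 17.9, 25.21 and 48.2 CPM in the mutant (lowest, median and highest of 14 libraries) and to 33.7, 70.2 and 137 CPM in wild type, ranges that overlap. Markers of germ line, intestine, body wall muscle and neurons were detected in all 28 libraries, whereas 18 of 22 spermatogenesis markers were at 0 in at least 1 library of each genotype. Mutant larvae ran later than wild-type larvae. Among the 2038 genes of the whole table that oscillated in both genotypes, the fitted peak came a median of 2.81 h later in the mutant (quartiles 2.68 h and 2.93 h). Stages were matched at the 3 h of the study, which sets mutant libraries of 21 to 31 h against wild-type libraries of 18 to 28 h in 11 pairs.

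Replication and cell cycle transcripts came in waves. Summed over the 41 genes, the level was lowest at 22 h in the mutant (1612 CPM) and highest 3 h later, at 25 h (2213 CPM), and in wild type it was lowest at 19 h (1487 CPM) and highest at 22 h (2446 CPM). Between those hours 36 of the 41 genes stood higher in the mutant, with a median log2 ratio of 0.46, and 38 of 41 in wild type, with a median of 0.74. Over all 12105 genes with at least 10 counts in 14 libraries, 50.3% and 52.4% stood higher over the same spans, with medians near 0. These hours were picked after the levels were seen, and each is 1 library, so the ratios are a description and carry no test.

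The summed level of seam cell and epidermis markers was high at the same hours, whereas their mean over single genes was highest earlier. Of a list of 13 such genes 12 had a row, and they summed to 897 and 912 CPM at 24 h and 25 h in the mutant, against a median of 456 CPM over its 14 libraries, although their highest mutant library was that of 18 h (985.4 CPM). In wild type they were highest at 22 h (1025 CPM, against a median of 446 CPM), stood at 812 CPM at 29 h and were lowest at 31 h (176 CPM). With each gene given equal weight, the mean log2(CPM + 1) relative to the gene mean over 28 libraries was highest at 23 h in the mutant (0.67). It was at 0.36 there at 25 h. In wild type it was highest at 21 h (0.49), and stood at 0.33 at 22 h and at -0.10 at 29 h. Among the 12 genes, 1 was at 0 in at least 1 mutant library and 3 in at least 1 wild-type library. Their part in the wave of the 41 genes was not tested.

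Wild-type larvae entered another wave before sampling ended. At 30 h, 30 of the 41 genes stood above their level at 28 h (median log2 ratio 0.27), against 49.9% of all genes. The mutant series stopped before the matching stage. From 28 h to 31 h 19 of its 41 genes stood higher and 22 lower, with a median log2 ratio of -0.01. The mutant rhythm below thus rests on a single full wave, and the wild-type rhythm on that wave and the first part of the next.

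**Figure D1:**
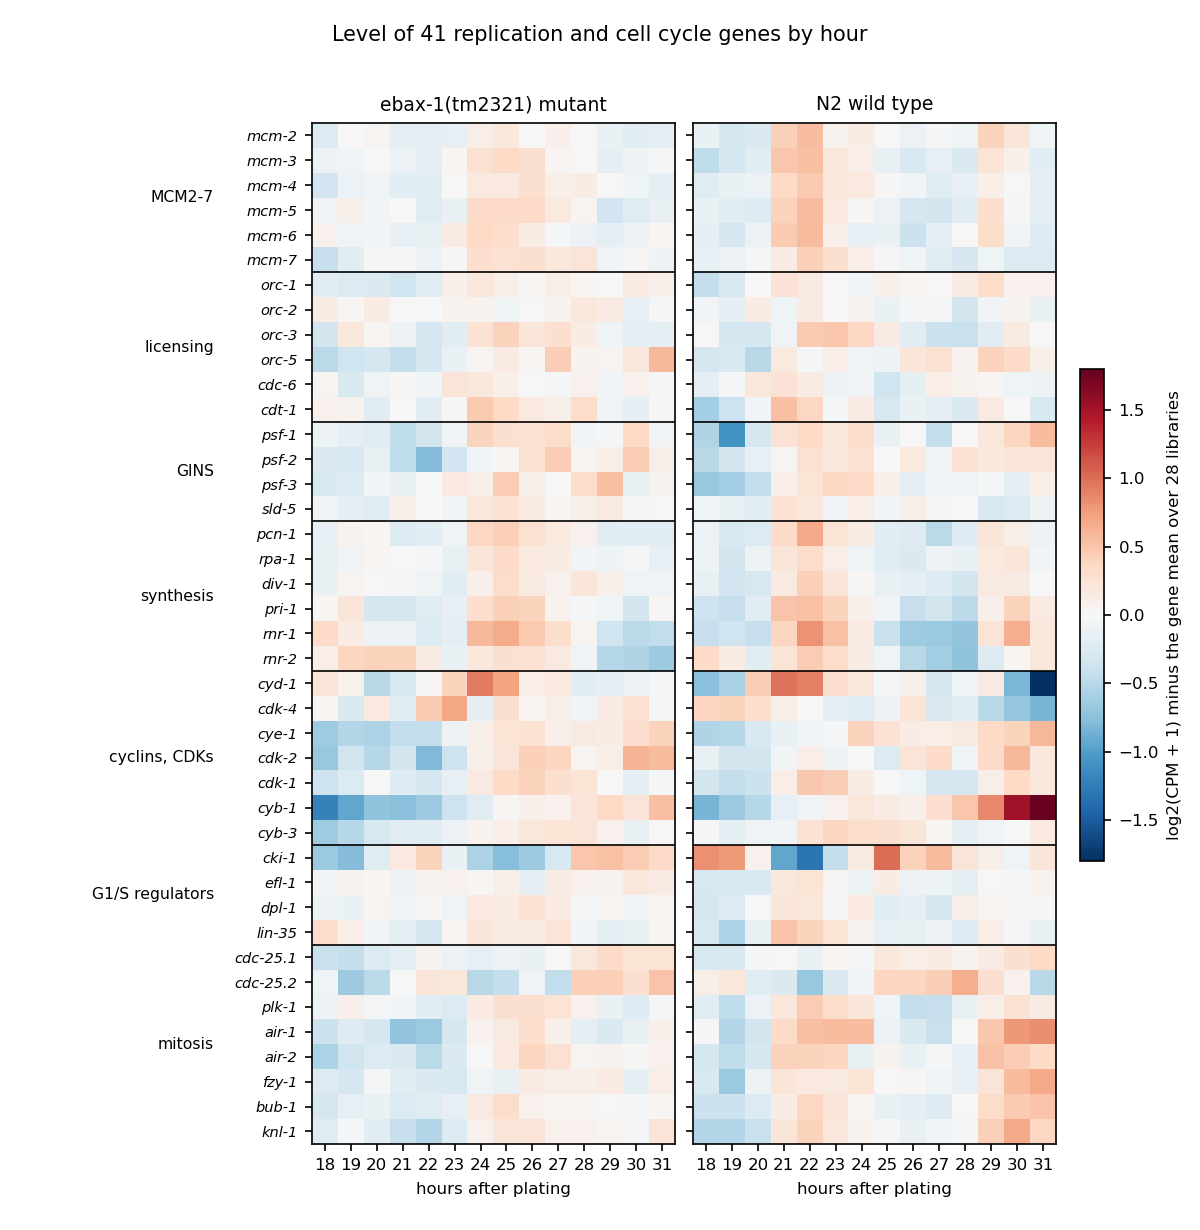
Level of the 41 genes (rows, grouped by role) at each hour after plating (columns), in the mutant on the left and wild type on the right, as log2(CPM + 1) minus the mean of the gene over all 28 libraries. A block of higher levels stands at 24 to 26 h in the mutant and at 21 to 23 h in wild type, and a further block begins at 29 h in wild type, while *cki-1* runs the opposite way.

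The 6 genes of DNA synthesis and precursor supply all stood higher at 25 h than at 22 h in the mutant (median log2 ratio 0.53) and at 22 h than at 19 h in wild type (0.86). *rnr-1*, the large subunit of ribonucleotide reductase, had 80.03, 111 and 180 CPM in the mutant (lowest, median and highest of 14 libraries) and 68.7, 106 and 199 CPM in wild type. Its highest mutant library was that of 25 h and its highest wild-type library that of 22 h, and wild type came back to 178 CPM at 30 h from its low at 28 h. At the same clock hour the genotypes therefore stood apart in opposite directions, with 94.6 CPM in the mutant and 199 CPM in wild type at 22 h, and 180 CPM in the mutant and 84.9 CPM in wild type at 25 h. *pcn-1*, the sliding clamp PCNA, had 75.1, 87.3 and 120 CPM in the mutant and 62.8, 81.9 and 143 CPM in wild type, with the same 2 hours highest. *rpa-1*, a subunit of the single-strand binding protein RPA, had 106, 116 and 149 CPM in the mutant and 93.01, 111 and 148 CPM in wild type. These genes shared the timing but not the size of the wave, since the highest library of *rnr-1* stood 2.24-fold above its lowest in the mutant and 2.89-fold in wild type, against 1.41-fold and 1.59-fold for *rpa-1*.

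*pri-1*, the catalytic primase subunit, and *div-1* were highest at the same hours as *rnr-1*. *pri-1* had 18.6, 23.6 and 31.97 CPM in the mutant and 16.7, 23.8 and 34.6 CPM in wild type. *div-1*, which codes for a subunit of the DNA polymerase alpha-primase complex, had 38.4, 45.5 and 56.4 CPM in the mutant and 34.9, 42.4 and 60.0 CPM in wild type. *rnr-2*, the small subunit of ribonucleotide reductase, had 41.6, 73.9 and 88.8 CPM in the mutant and 39.7, 70.1 and 90.9 CPM in wild type. In the mutant the small subunit parted from the large one in its hours, with its highest library at 20 h and its lowest at 31 h.

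**Figure D2:**
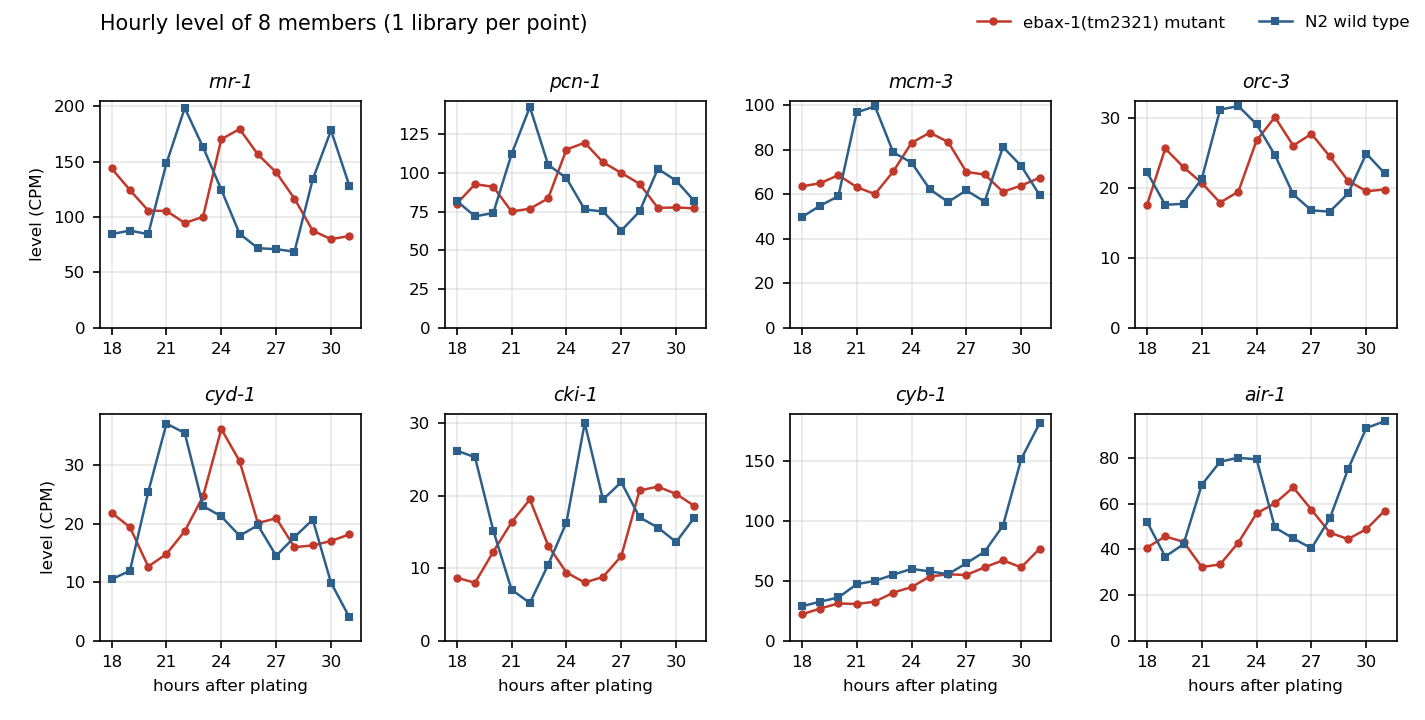
Level in CPM (vertical axis, from 0) by hour after plating (horizontal axis) of 8 of the genes, with 1 library per point, in the mutant (red circles) and wild type (blue squares). *rnr-1*, *pcn-1*, *mcm-3* and *orc-3* are highest at 25 h in the mutant and at 22 or 23 h in wild type, *cki-1* is at its wild-type low when they are high, and *cyb-1* reaches 76.6 CPM in the mutant and 181 CPM in wild type at 31 h.

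All 6 subunits of the MCM2-7 helicase were highest at 24 to 26 h in the mutant and at 22 h in wild type. *mcm-4*, the most abundant of them per kilobase of exon, had 69.3, 85.4 and 108 CPM in the mutant and 75.2, 86.3 and 123 CPM in wild type. *mcm-3* had 60.0, 67.9 and 87.6 CPM in the mutant and 49.7, 61.9 and 99.4 CPM in wild type. For the 6 genes the highest library stood at most 1.65-fold above their lowest in the mutant and at most 2.002-fold in wild type. Their mean levels lay close to each other, at 25.9 to 33.3 CPM per kb in the mutant and 25.6 to 34.4 CPM per kb in wild type.

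The licensing genes were less uniform. *orc-3* and *orc-1*, subunits of the origin recognition complex, differed in shape. *orc-3* had 17.5, 22.0 and 30.1 CPM in the mutant, highest at 25 h, and 16.6, 21.7 and 31.7 CPM in wild type, highest at 23 h. *orc-1* had 32.9, 43.6 and 48.7 CPM in the mutant, highest at 24 h, and 31.3, 43.99 and 53.4 CPM in wild type, highest at 29 h. *cdt-1*, which brings the helicase to origins, was highest at 24 h in the mutant (30.8 CPM) and at 21 h in wild type (32.3 CPM), each 1 h before the general maximum.

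*cdc-6*, the partner of CDT-1 in loading, had its highest library at 23 h in the mutant (51.0 CPM) and at 21 h in wild type (52.1 CPM). *orc-2*, another subunit of the complex, stayed between 24.6 and 31.2 CPM in the mutant, without a visible wave. In wild type it lay between 21.5 CPM (28 h) and 30.3 CPM (22 h), with 24.1 CPM at 19 h and 28.6 CPM at 30 h. *orc-5*, also a subunit, was highest at 31 h in the mutant (21.6 CPM) and at 29 h in wild type (19.1 CPM). The 4 GINS genes had few counts, with *psf-1*, *psf-2* and *psf-3* between 3.70 and 11.7 CPM in the mutant and between 2.32 and 10.3 CPM in wild type, and *sld-5* between 11.7 and 16.8 CPM in the mutant and between 11.1 and 16.8 CPM in wild type. At such levels a wild-type library held as few as 12 counts of *psf-1*, so counting error alone is large there.

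*cyd-1*, the cyclin D gene, reached its highest level before the other cyclins. It had 12.7, 19.1 and 36.2 CPM in the mutant, highest at 24 h, and 4.05, 18.8 and 37.1 CPM in wild type, highest at 21 h. In wild type its level was 4.05 CPM at 31 h, the lowest of all 28 libraries, in the same library in which *air-1* was highest. *cdk-4*, the partner kinase, ran apart from its cyclin, with its highest library at 23 h in the mutant (13.9 CPM) and at 19 h in wild type (11.2 CPM) and its lowest wild-type library at 31 h (4.18 CPM).

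*cdk-1*, the mitotic kinase, had 45.8, 59.4 and 79.9 CPM in the mutant, highest at 26 h, and 44.2, 62.0 and 84.2 CPM in wild type, highest at 22 h. *cyb-3*, a B-type cyclin, had 37.1, 56.3 and 69.5 CPM in the mutant, highest at 27 h, and 51.4, 59.1 and 76.9 CPM in wild type, highest at 23 h. Both genes thus reached their highest mutant library 4 h after their highest wild-type library.

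*cki-1*, a CDK inhibitor of the p27 family, went the other way. It had 7.99, 12.7 and 21.2 CPM in the mutant and 5.21, 16.6 and 30.0 CPM in wild type. Its wild-type low fell on 22 h, the hour at which 21 of the 41 genes had their highest level of the matched window, and it was at 30.0 CPM 3 h later. In the mutant it stood at 19.5 CPM at 22 h, when the summed level of the 41 genes was lowest, and at 8.03 CPM at 25 h, when that sum was highest. Of the other genes, *cdk-4* and *cdc-25.2*, a phosphatase that activates CDKs, were also lower at 25 h than at 22 h in the mutant and lower at 22 h than at 19 h in wild type.

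*efl-1* and *dpl-1*, the E2F and DP subunits, varied little and kept their highest library within 1.301-fold of the lowest in the mutant and within 1.48-fold in wild type. *lin-35*, the Rb family protein that acts with them, varied more and had 40.7, 51.4 and 62.6 CPM in the mutant and 33.6, 46.6 and 72.1 CPM in wild type, with its wild-type maximum at 21 h. Its mutant maximum, at 18 h, lies outside the matched window.

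Of the 8 mitotic genes, 6 stood higher at 25 h than at 22 h in the mutant and 7 stood higher at 22 h than at 19 h in wild type, and 6 had their highest wild-type library at 29 to 31 h. *air-1*, Aurora A, had 32.3, 46.5 and 67.1 CPM in the mutant, highest at 26 h, and 36.9, 60.9 and 96.1 CPM in wild type, highest at 31 h. *plk-1*, the polo kinase, had 65.7, 76.3 and 95.9 CPM in the mutant and 56.5, 78.8 and 107 CPM in wild type. *knl-1*, a kinetochore scaffold, had 44.6, 65.3 and 76.1 CPM in the mutant and 44.2, 65.2 and 103.8 CPM in wild type. The last 3 wild-type hours have no matched mutant library, so the higher wild-type maxima of *air-1* and *knl-1* cannot be set against a mutant value of the same stage.

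Others of this group differed in shape. *air-2*, Aurora B, and *fzy-1*, the Cdc20 activator of the anaphase-promoting complex, were highest at 26 h in the mutant (18.8 and 35.7 CPM). In wild type *air-2* was highest at 29 h (20.8 CPM) and *fzy-1* at 31 h (51.9 CPM). *bub-1*, a spindle checkpoint kinase, was highest at 25 h in the mutant (89.8 CPM) and at 31 h in wild type (102 CPM). *cdc-25.1*, a CDK-activating phosphatase, had 31.8, 40.1 and 55.01 CPM in the mutant and 35.1, 44.5 and 55.5 CPM in wild type, highest at 29 h in the mutant and at 31 h in wild type.

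**Figure D3:**
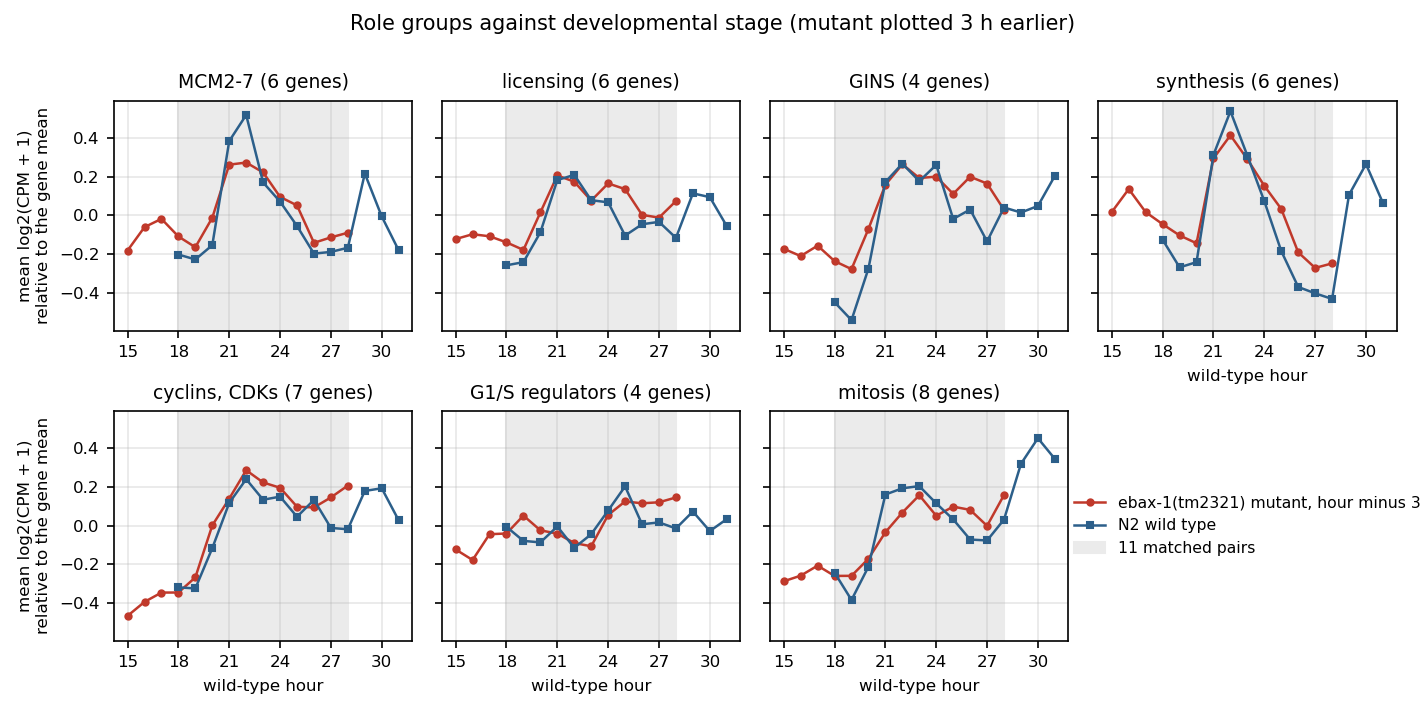
Mean log2(CPM + 1) of each role group relative to the mean of its genes (vertical axis) against the wild-type hour (horizontal axis), with mutant hours (red circles) shifted 3 h earlier onto wild type (blue squares) and the 11 matched pairs shaded. After the shift the mutant and wild-type waves overlap in time, the MCM2-7 and synthesis groups reach a higher maximum in wild type, and only wild-type libraries cover the stages after 28 h.

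Does this wave repeat with the 7 h period of the larval oscillator, and how far do the genotypes lie apart in time? A curve with a cosine, a sine and a linear term was fitted to the counts of each genotype with edgeR's quasi-likelihood test. A rhythm passed at a Benjamini-Hochberg adjusted p under 0.01, and its amplitude is the log2 distance from midline to peak. In the mutant 7 of the 41 genes passed, against 32.5% of the 13164 genes tested. These were *pri-1*, *cki-1*, *lin-35*, *cdc-25.1*, *plk-1*, *air-1* and *knl-1*. In wild type 19 of 41 passed, against 30.2% of the 14016 genes tested. They comprised *mcm-2*, *mcm-3*, *mcm-5*, *mcm-6*, *orc-3*, *cdc-6*, all 6 synthesis genes, *cdk-1*, *cki-1* and 5 of the 8 mitotic genes (*plk-1*, *air-1*, *air-2*, *bub-1* and *knl-1*). None of the 4 GINS genes passed in either genotype. In this fit the wild-type share lies above that of all genes and the mutant share below it, but the counts depend on the fit. A quadratic trend, or the matched hours alone, raised the mutant count, and its share was not set against that of all genes in those fits. Both counts can change by more than 1.5 times when a library is left out. Without the mutant library of 22 h, or that of 26 h, 4 genes passed in the mutant, and without the wild-type library of 22 h 11 passed in wild type. Shares of all genes are not given for these reduced fits. With a second harmonic in the curve, an alternative chosen after the hourly levels were seen, 3 genes passed in the mutant (24.48% of all genes) and 9 in wild type (25.37%). In that fit the share of the 41 genes lay below that of all genes in wild type as well.

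Amplitudes were modest. Over the 41 genes the median amplitude was 0.16 in the mutant (0.02 to 0.58) and 0.30 in wild type (0.03 to 0.82). An amplitude of at least 0.5 log2 together with a passed rhythm was found in the mutant for *cki-1* alone (18.3% of all genes tested), and in wild type for *cki-1*, *rnr-1* and *air-1* (19.5% of all genes tested). The amplitude of *cki-1* was 0.58 in the mutant (adjusted p = 0.00023) and 0.82 in wild type (adjusted p = 0.0022, edgeR). *rnr-1* had amplitudes of 0.37 in the mutant (adjusted p = 0.032) and 0.70 in wild type (adjusted p = 0.00015), and *air-1* had 0.34 in the mutant (adjusted p = 0.00023) and 0.58 in wild type (adjusted p = 3.2e-05). *cyd-1* had amplitudes of 0.40 in the mutant and 0.58 in wild type, but its rhythm did not pass in either genotype (adjusted p = 0.023 and 0.065).

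**Figure D4:**
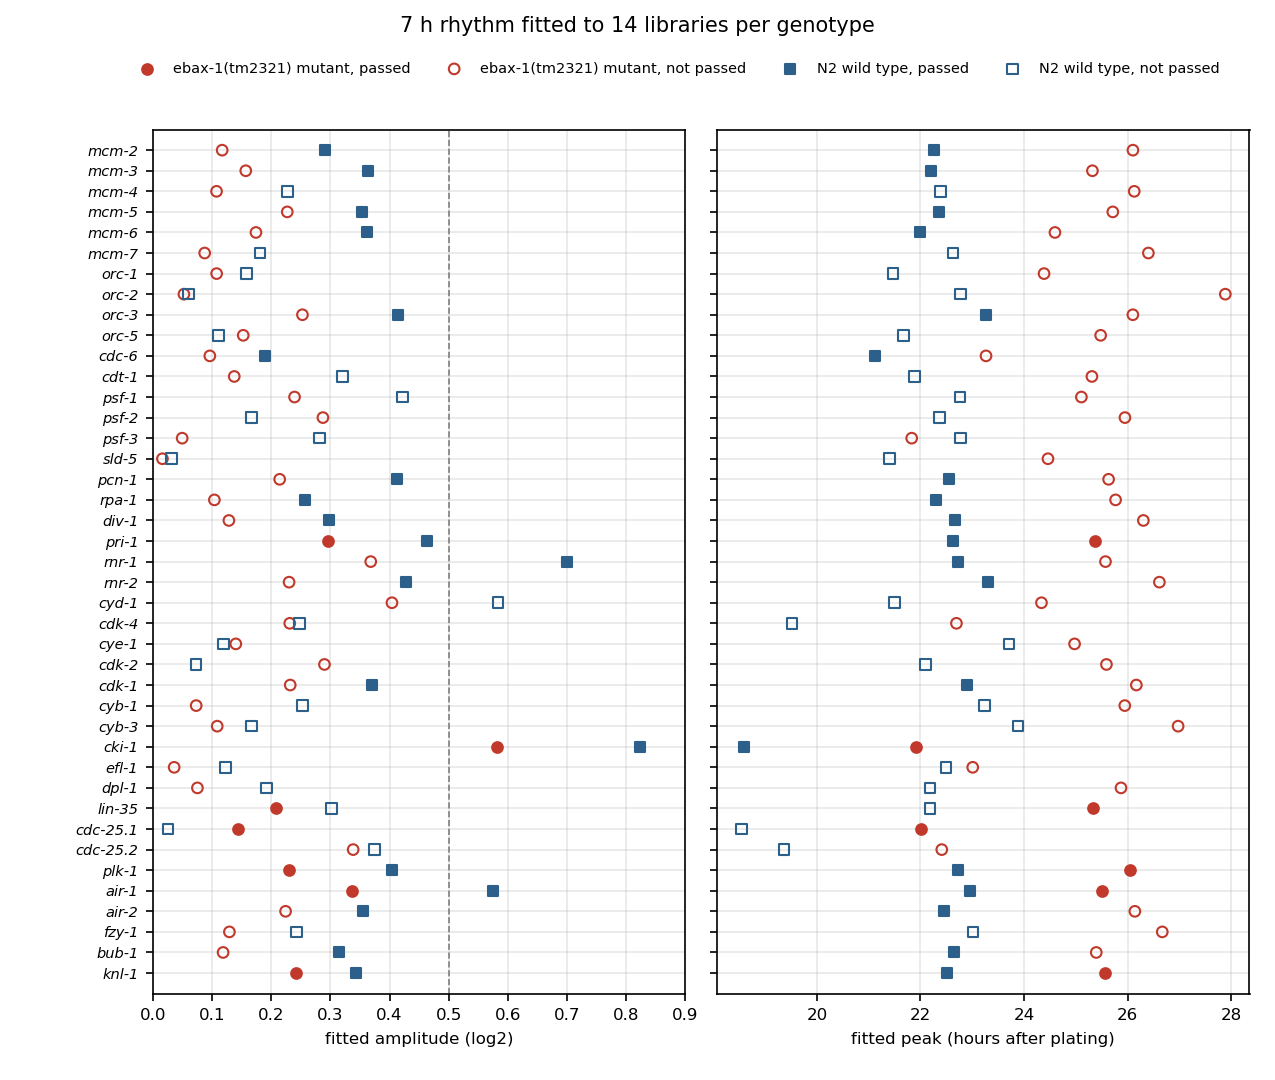
Fitted amplitude in log2 (left) and fitted peak in hours after plating (right) of each gene, in the mutant (red circles) and wild type (blue squares), filled where the rhythm passed at adjusted p under 0.01. The dashed line marks an amplitude of 0.5 log2. Most peaks gather near 25.6 h in the mutant and 22.5 h in wild type, with *cki-1*, *cdk-4*, *cdc-25.1* and *cdc-25.2* earlier in both.

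Fitted peaks of the 19 genes with a wild-type rhythm lay at a median of 25.6 h in the mutant and 22.5 h in wild type. Without *cki-1* they ranged from 23.3 to 26.6 h in the mutant and from 21.1 to 23.3 h in wild type. The peak of *cki-1* was at 21.9 h in the mutant and at 18.6 h in wild type. For the 5 genes whose rhythm passed in both genotypes (*cki-1*, *pri-1*, *plk-1*, *air-1* and *knl-1*) the mutant peak came a median of 3.06 h later, from 2.54 h for *air-1* to 3.32 h for *plk-1*. The 3219 genes of the whole table with a rhythm in both genotypes had a median lag of 2.81 h (quartiles 2.66 h and 2.98 h). Within wild type the fitted peaks without *cki-1* lay close together, and their order along the cycle was not tested. Of the licensing genes *cdc-6* peaked at 21.1 h and *orc-3* at 23.3 h, and the 4 MCM genes peaked at 22.0 to 22.4 h, the synthesis genes at 22.3 to 23.3 h, *cdk-1* at 22.9 h and the 5 mitotic genes at 22.4 to 23.0 h.

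In the matched window the fitted amplitude was smaller in the mutant than in wild type for all 19 genes with a wild-type rhythm, with a median ratio of 0.69. The same held for 90.7% of the 4110 genes of the table with a wild-type rhythm, with a median ratio of 0.72. The difference of rhythm itself passed in 0 of 41 genes (0.0293% of the 13661 genes tested) with edgeR, and in 0 with limma on the deposited log2 values. At an unadjusted p under 0.05 it was met by 4 of the 41 genes, *cdc-6*, *cye-1*, *plk-1* and *air-1*, and by 13.9% of all genes. At an offset of 2 h the difference passed for *cki-1* and *plk-1* (15.96% of all genes), and at 4 h for *air-1* and *orc-3* (16.76%), so 2 of 41 genes is below the share of all genes at either offset.

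Beside the wave, a linear trend over the 13 h was fitted. A passed trend need not be a steady change. In the mutant *knl-1*, counted among the upward genes below, stood at 63.4 CPM at 19 h, 44.6 CPM at 22 h and 75.3 CPM at 25 h. A linear trend passed upward in 13 of 41 genes in the mutant (13.6% of all genes tested) and in 3 of 41 in wild type (20.2%), and downward in 1 gene in the mutant (11.9%) and in 2 in wild type (11.8%). *cyb-1*, a cyclin B gene, had the largest fitted trend in both genotypes. It had 22.0, 49.2 and 76.6 CPM in the mutant and 28.8, 56.7 and 181 CPM in wild type, lowest at 18 h and highest at 31 h in each. Its fitted change over 13 h was 1.73 log2 in the mutant (SE 0.11, adjusted p = 7.3e-08) and 2.04 log2 in wild type (SE 0.19, adjusted p = 7e-07, edgeR). In wild type it was at 74.3 CPM at 28 h, 95.9 CPM at 29 h, 152 CPM at 30 h and 181 CPM at 31 h, stages that the mutant series does not reach. Over the matched hours its change differed by 0.00 log2 between mutant and wild type (95% interval -0.28 to 0.29).

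Upward trends passed for cyclin E in both genotypes and for its kinase in the mutant. *cye-1* rose by 1.15 log2 over 13 h in the mutant (SE 0.12, adjusted p = 6.5e-06) and by 0.90 log2 in wild type (SE 0.14, adjusted p = 0.00015). *cdk-2* had 5.05, 10.0 and 15.02 CPM in the mutant and 7.33, 9.31 and 14.96 CPM in wild type. Its trend passed in the mutant, at 1.59 log2 (SE 0.19, adjusted p = 1.6e-05), and missed the threshold in wild type, at 0.65 log2 (SE 0.21, adjusted p = 0.020). The difference of the *cdk-2* trend between genotypes at matched stage did not pass. The annotation places an ncRNA gene over 100 exon bases of *cdk-2* on the same strand, so reads in that stretch could belong to either.

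Changes of at least 1 log2 with a passed upward trend were found in 5 of 41 genes in the mutant (8.31% of all genes tested) and in 1 of 41 in wild type (14.9%), and downward changes of that size in 0 genes in the mutant (4.48%) and 0 in wild type (6.14%). Beside *cyb-1*, *cye-1* and *cdk-2*, the mutant genes were *psf-2*, at 1.13 log2 (SE 0.22), and *orc-5*, at 1.07 log2 (SE 0.14). *orc-5* and *cyb-1* lie next to each other on chromosome IV, in opposite directions, with 627 bases between them in assembly WBcel235. The other upward trends of the mutant, in *orc-1*, *cdk-1*, *cyb-3*, *cdc-25.1*, *air-1*, *air-2*, *fzy-1* and *knl-1*, spanned 0.41 log2 (*orc-1*) to 0.91 log2 (*air-2*), and the third upward gene in wild type was *cdc-25.1*, at 0.54 log2. Restricted to its matched 11 libraries, the mutant had 7 upward genes (10.4% of all genes tested) and wild type 2 (10.8%), and the difference of trend between genotypes passed in 0 of 41 genes and in 0.00% of all 13661 genes. At an unadjusted p under 0.05 it was met by 2 genes, *air-1* and *cdk-2*, against 5.54% of all genes.

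Downward trends were fewer. *rnr-2* changed by -0.68 log2 over 13 h in the mutant (SE 0.17, adjusted p = 0.0060) and by -0.86 log2 in wild type (SE 0.16, adjusted p = 0.00076). The mutant call was lost when any 1 of the libraries of 21, 22, 23, 27, 28, 29, 30 or 31 h was left out. *cdk-4* changed by -0.98 log2 in wild type (SE 0.17, adjusted p = 0.00043), and in the mutant its fitted change was -0.18 log2 (SE 0.26, adjusted p = 0.62). The difference of the *cdk-4* trend at matched stage was 0.37 log2 (95% interval -0.32 to 1.06) and did not pass.

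Germ line markers rose over the same hours. A list of 26 germ line markers summed to 1268 CPM at 18 h and 2941 CPM at 31 h in the mutant, and to 1429 and 3760 CPM in wild type, with upward trends in 24 of 26 genes in each genotype. The 12 oocyte markers summed to 88.8 CPM at 18 h and 205 CPM at 31 h in the mutant, and to 117 and 423 CPM in wild type, of which 171 CPM was reached by 28 h. The 22 spermatogenesis markers summed to 3.91 and 260 CPM in the mutant and to 4.08 and 1483 CPM in wild type, of which 287 CPM was reached by 28 h. The part of germ line RNA in the trends of the 41 genes was not tested.

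Once stages were matched, the mean level of these genes differed little between mutant and wild type. A spline over stage was fitted to the 11 matched pairs with a genotype term, and the mean difference passed at an adjusted p under 0.01 in 0 of 41 genes, neither higher (9.73% of the 14022 genes tested) nor lower (9.16%), with edgeR. DESeq2 also called 0, and limma on the deposited log2 values called 3 (*cdk-1*, *plk-1* and *rpa-1*, all higher in the mutant, against 13.6% of all genes higher and 6.5% lower). A difference of either level or course passed in 0 genes as well (5.79% of all genes). At an unadjusted p under 0.05 there were 12 genes (40.3% of all genes), 11 of them higher in the mutant. The median difference over the 41 genes was 0.06 log2, beside 0.04 log2 over all genes. Every 95% interval lay within 0.5 log2 of 0, from a lowest bound of -0.37 for *cki-1* to a highest bound of 0.47 for *psf-3*.

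The gene nearest to the threshold was *air-1*. In the 11 matched libraries it averaged 49.7 ± 10.99 CPM in the mutant and 56.9 ± 16.6 CPM in wild type (SD over hours), and it was lower in the mutant in 8 of 11 pairs. The fitted difference was -0.17 log2 (SE 0.04, 95% interval -0.27 to -0.08, adjusted p = 0.010, just above the threshold, edgeR). It passed without the pair of wild-type 27 h, with no filter on low counts and at an offset of 2 h. *rnr-1* had the lowest adjusted p among the higher genes. It averaged 120 ± 36.2 CPM in the mutant and 108 ± 44.1 CPM in wild type, was higher in the mutant in 9 of 11 pairs, and had a fitted difference of 0.19 log2 (SE 0.06, 95% interval 0.05 to 0.32, adjusted p = 0.039). It passed without the pair of wild-type 18, 19 or 20 h and when libraries were scaled by their totals alone. The largest fitted differences upward, of *psf-3* (0.26 log2, SE 0.10) and *psf-1* (0.22 log2, SE 0.09), belonged to genes of low count and did not pass (adjusted p = 0.058 and 0.081).

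**Figure D5:**
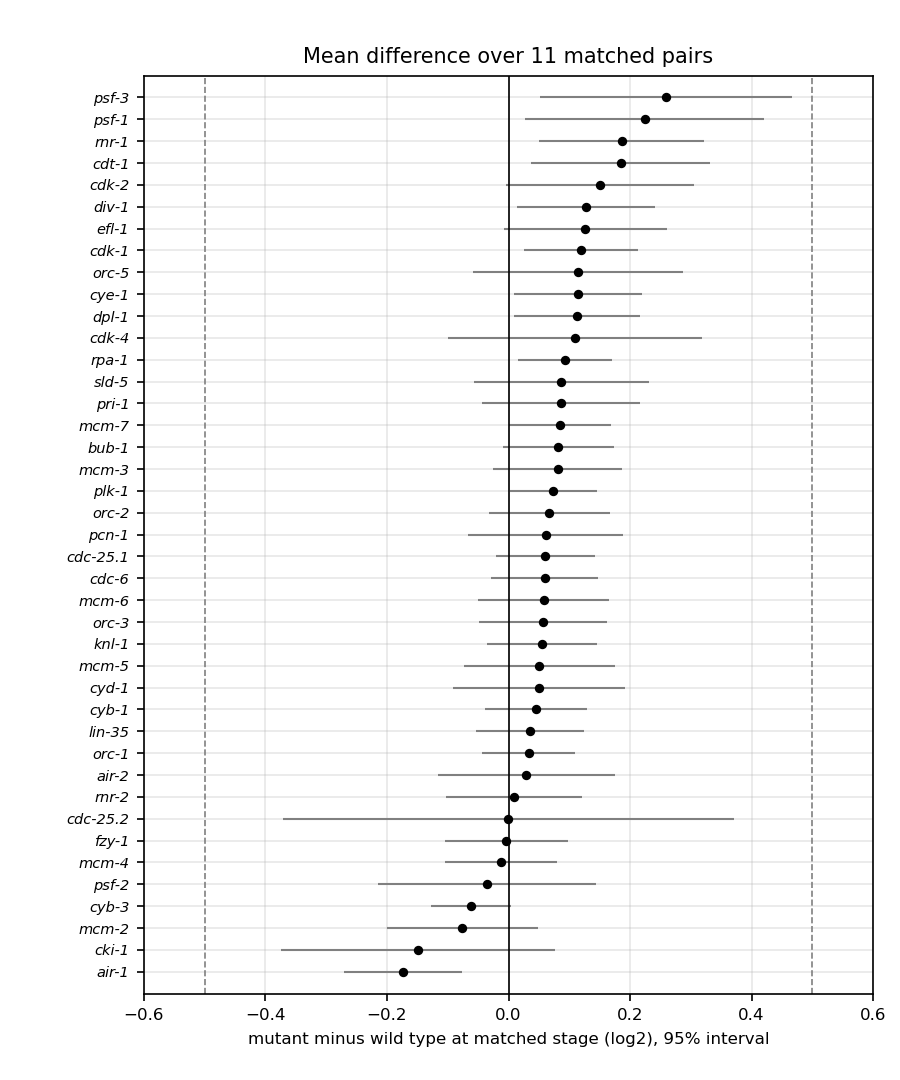
Fitted mean difference, mutant minus wild type, of each gene over 11 matched pairs (point) with its 95% interval (line), on a log2 scale. All 41 intervals lie between the dashed lines at -0.5 and 0.5, and the points run from -0.17 (*air-1*) to 0.26 (*psf-3*).

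Pair by pair, the small differences varied with the hour. Shares over all genes were not set beside the counts of single pairs and clock hours below, so these counts describe the 41 genes only. In the matched fit a smaller amplitude in the mutant held for 90.7% of all genes with a wild-type rhythm. With wild type at 21 h and 22 h, the hours of its maximum, 29 and 30 of the 41 genes were lower in the mutant, with median log2 ratios of -0.07 and -0.13. In 8 of the other 9 pairs 24 to 32 of the 41 genes were higher in the mutant, with medians of 0.02 to 0.16, and at wild-type 23 h 21 were higher and 20 lower. At the same clock hour the picture was far larger and alternated. At 22 h 37 of 41 genes were lower in the mutant (median log2 ratio -0.60), at 25 h 33 of 41 were higher (0.34), and at 29 h 29 of 41 were lower again (-0.23). Comparing all 28 libraries by clock hour, 5 genes were lower in the mutant on average (*air-1*, *cki-1*, *cyb-1*, *cyb-3* and *cye-1*, against 13.6% of all genes) and 0 were higher (14.2%).

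A list of 118 other genes of the same processes, of which 113 had a row, was read in the same fits. A rhythm passed in 11 of 110 genes in the mutant (32.5% of all genes) and in 23 of 111 in wild type (30.2%), with 10 of 22 among other DNA replication genes in wild type. The largest amplitude was that of *tyms-1*, thymidylate synthase, at 0.54 in the mutant and 0.85 in wild type, followed in wild type by *kbp-2*, a kinetochore protein gene, at 0.55 and *gmn-1*, geminin, at 0.54. Upward trends passed in 50 of 110 genes in the mutant (13.6% of all genes) and in 41 of 111 in wild type (20.2%). At matched stage 12 of 111 were higher in the mutant, a share near the 9.73% of all genes, led by *sas-6*, a centriole assembly gene, at 0.28 log2 (SE 0.05, adjusted p = 0.00072) and *tyms-1* at 0.25 log2 (SE 0.06, adjusted p = 0.0083), and 2 were lower (9.16% of all genes), *spd-5*, a centrosome scaffold gene, at -0.28 log2 (SE 0.03, adjusted p = 8e-06) and *par-5*, a 14-3-3 protein gene, at -0.12 log2 (SE 0.02, adjusted p = 0.00089).

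Tissue markers were also read in the matched comparison, in which 9.73% of all genes were higher in the mutant and 9.16% lower. Of 14 body wall muscle markers 11 were lower in the mutant and 0 higher (median -0.20 log2), of 13 intestine markers 7 were lower and 2 higher (median -0.15 log2), and of 26 germ line markers 4 were higher and 0 lower (median 0.10 log2). Of 12 seam and epidermis markers 1 was higher and 0 lower, of 13 vulva and sex myoblast markers 2 were higher and 1 lower. Of 14 neuron markers 1 was higher and 3 lower. The 10 oocyte and 18 spermatogenesis markers tested gave 0 in either direction. CPM are relative to all counts of a library, and the part of these tissues in the values of the 41 genes was not tested. Per kilobase of exon, the clamp *pcn-1* was the most abundant of the 41 genes (91.3 CPM per kb in the mutant, 90.4 CPM per kb in wild type), followed by *rpa-1* (55.5 and 54.4) and *cdk-1* (51.2 and 51.6), and *cdk-2* was the least abundant (4.16 and 4.30). The genes were spread over all 6 chromosomes, with 11 on I, 8 on II, 11 on III, 3 on IV, 7 on V and 1 on X.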

How the data were processed

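Poly(A) mRNA of 28 libraries was sequenced. According to the methods and the labels, the authors aligned reads to genome ce10 with HISAT2 (no version is given in the sources used here) and counted first reads on the opposite strand of the exons of each gene. They deposited raw counts per gene and log2 values of counts scaled to library size plus a pseudocount of 8. Groups came from the genotype labels of the samples, and hours from the sample titles. Gene names came from a WBcel235 annotation, which matched 19182 of 20392 identifiers and also gave exon lengths and chromosomes.

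Counts were analysed in R 4.3.3 with edgeR 4.0.16 (TMM, filterByExpr, quasi-likelihood test, Benjamini-Hochberg over all genes tested). Rhythm (7 h cosine and sine) and trend (linear) were fitted per genotype on 14 libraries. The mean difference used a cubic B-spline of 6 components with genotype interaction on 22 stage-matched libraries, which leaves 8 residual degrees of freedom, and differences of rhythm and trend used genotype interactions of the first model. DESeq2 1.42.0 and limma 3.58.1 were alternatives. The edgeR fits of rhythm (also with a second harmonic), trend, mean difference and difference of trend were tested on simulated data. The difference of rhythm, the test of any difference and the other alternatives were not. The simulated libraries were drawn independently of each other, so dependence between successive hours was not covered, and the outcomes are not given here. The 42 genes and all lists were chosen with earlier results of these data known. All 42 are named or counted, with full values for the extremes of each test and for the leading genes of each role. Intervals cover the scatter around the fitted curve only.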

Additional observations from a re-analysis of the deposited data

How the results depend on the processing

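Counts of called genes among the 41 depended mostly on the form of the time curve. With a quadratic trend the rhythm passed in 18 genes in the mutant, with 23 upward and 4 downward trends there and 7 downward trends in wild type. With a second harmonic the rhythm passed in 3 genes in the mutant and 9 in wild type, and 0 downward trends were left in the mutant. Within the matched hours alone, the rhythm passed in 14 genes in the mutant, the trend upward in 7 there and downward in 1 in wild type. A period of 7.4 h gave 4 downward trends in wild type. These counts are given without the shares of all genes in the same fits, and the cause of the changes was not tested.

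For the mean difference, limma on the deposited log2 values called 3 genes higher (13.6% of all genes) and scaling by total counts 2. No filter on low counts and an offset of 2 h each called 1 lower, and an offset of 4 h 1 higher. The same clock hour called 5 lower (13.6% of all genes). Shares of all genes are not given for total counts, no filter and the offsets in the mean difference. The median difference ranged from 0.03 log2 by clock hour to 0.11 log2 with limma or with scaling by total counts. The difference of rhythm passed in 2 genes at an offset of 2 h (15.96% of all genes) and in 2 at 4 h (16.76%). *cyb-1* (0.05 log2 at matched stage, -0.47 log2 by clock hour) and *cye-1* (0.11 log2 and -0.14 log2) changed direction by clock hour. Keeping the stage-matched pair as a block left the median at 0.06 log2 and called 0 genes in either direction.

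Leaving out 1 library, or 1 pair, gave 4 to 10 rhythms in the mutant and 11 to 18 in wild type, 10 to 15 upward trends in the mutant and 3 to 5 in wild type, 0 to 1 and 2 to 3 downward trends, 0 to 1 genes higher and 0 to 1 lower, 0 differences of trend or rhythm, and a median difference of 0.05 to 0.08 log2. Of the values of single genes under all alternatives, 4861 kept their direction and side of the threshold, 138 no longer passed, 83 newly passed and 2 changed direction. Depth limits the GINS genes, whose counts were low.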
